A study of Drosophila melanogaster with 35 samples.

Results

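Nup358, Nup153, Nup205, Nup133 and Elys are 5 nucleoporin genes of Drosophila melanogaster. They were taken as the probe rows that name 1 of these genes and no other, which gave 6 rows of 9006 and 5 genes of 7258 with a symbol. Nup153 (CG4453) has 2 cDNA clones on the arrays, LD46585 and LD47460. Elys (CG14215), Nup205 (CG11943), Nup133 (CG6958) and Nup358 (CG11856) have 1 clone each, LD29239, LD30725, LD25077 and LD43045. Nup153, Elys and Nup205 lie on chromosome X, where 34 annotated genes separate Elys from Nup205, and Nup133 and Nup358 lie on chromosome arm 3R.

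Nuclear pore complexes are channels through the nuclear envelope, built from many copies of a set of proteins called nucleoporins. The scaffold has outer rings made of the Y complex and an inner ring between them, with filaments on the cytoplasmic side and a basket on the nuclear side. The basket is set in the nuclear lamina, the meshwork of lamin filaments under the inner nuclear membrane. Nup358 forms the cytoplasmic filaments, Nup153 belongs to the basket, Nup205 to the inner ring and Nup133 to the Y complex. Elys, from work in vertebrate cells, binds chromatin and recruits the Y complex when pores are built after mitosis. The arrays measured the genes that encode these proteins, not the proteins.

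The study used DamID in Kc167 cells, a line derived from Drosophila embryos. In DamID a protein is joined to Dam, the adenine methyltransferase of E. coli, and DNA methylated in cells with the fusion is compared with DNA methylated in cells with Dam alone. All fusions were expressed from transfected pNDamMyc plasmids, also in the Dam controls, which carried Dam without a fusion. Lam is the B-type lamin, and Lam delta CaaX lacks its C-terminal 4 amino acids, the CaaX signal that targets lamin to the nuclear membrane.

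In untreated cells, Dam-Lam over Dam and Dam-Lam delta CaaX over Dam were measured on 4 arrays each. The TSA experiment used cells grown for 24 h with 100 nM trichostatin A (TSA), which inhibits histone deacetylases, and had 5 pairs of arrays: treated over untreated DNA for Dam, for Lam and for Lam delta CaaX, and each fusion over Dam with both samples treated. mRNA of untreated cells was set against genomic DNA on 2 arrays, and mRNA of cells with over without the hormone ecdysone on 5 arrays. A DamID experiment with 1 µM ecdysone for 24 h had 10 arrays. Each pair or group held both dye orientations. Whether the arrays in 1 group stem from different cultures is not given by the labels, so the array-to-array spread behind each p-value may be technical.

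Values are log2 ratios of the first-named over the second-named sample, with the median of each array set to 0. A value below 0 for Lam over Dam therefore means less methylation by Dam-Lam, relative to Dam, than at the median spot. Arrays carried 7542 to 8485 rows with a value. Arrays are called here by the numbers in their labels, and as Cy5 or Cy3 by the dye of the first-named sample. A unit is a gene, with its rows averaged, or a row with no single gene name, and a unit was called at a limma adjusted p under 0.05 over all units of a fit. As a check of the cell type, hemocyte markers were read on the mRNA arrays, because Kc167 is described as hemocyte-like: 6 of 10 lay above the median, from 4.49 for Hml to -2.25 for NimC1. Of 7 measured markers of other cell types, 5 lay between -2.73 and -1.31, and the muscle genes up and Act88F had 0.59 and 3.54.

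All 5 nucleoporin genes had low Lam ratios in untreated cells. Each was below 0 on 4 of 4 arrays and each was called lower, where 14.9% of the 8062 units tested were called lower. Elys had -0.91 and -1.57 on the Cy5 arrays 2907 and 2921, and -1.61 and -1.81 on the Cy3 arrays 2945 and 2955. Its mean was -1.47 ± 0.16 (SE, n = 4, adjusted p = 0.00288), a 2.78-fold lower ratio and the 19th lowest of the 8062 units. Array 2907 stood above the other 3 arrays for this gene. Nup358 had -0.86 and -0.82 on the Cy5 arrays and -1.18 and -0.77 on the Cy3 arrays, a mean of -0.91 ± 0.14 (adjusted p = 0.00635). These 4 values had the smallest spread among the 5 genes, with an SD of 0.19.

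Nup153, read from clone LD47460 alone on these arrays, had -0.86, -0.88, -0.48 and -1.16 on arrays 2907, 2921, 2945 and 2955, and a mean of -0.84 ± 0.16 (adjusted p = 0.0106). Nup205 had -0.85, -0.37, -1.21 and -0.50 on the same arrays, and a mean of -0.73 ± 0.18 (adjusted p = 0.0212). Nup133 had -0.78, -0.56, -0.45 and -0.12, and a mean of -0.48 ± 0.14 (adjusted p = 0.0406). For Nup153 the Cy5 values lay between the Cy3 values, for Nup205 both dyes were mixed, and for Nup133 both Cy5 arrays were lower than both Cy3 arrays. In share of units with a lower Lam ratio, Elys stood at 0.22%, Nup358 at 2.18%, Nup153 at 3.09%, Nup205 at 5.28% and Nup133 at 16.35%.

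**Figure D1:**
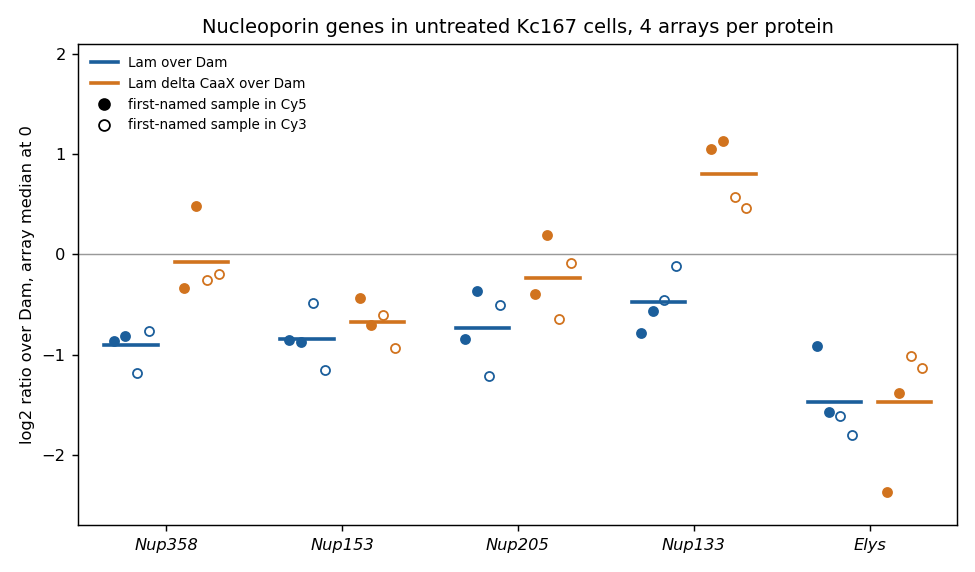
Log2 ratio over Dam (y axis, array median at 0) of each nucleoporin gene on the 4 Lam arrays (blue) and the 4 Lam delta CaaX arrays (orange) of untreated cells, with bars for the means and filled or open points for the dye of the fusion sample. All Lam points lie below 0, and the Lam delta CaaX points of Nup133 all lie above 0, from 0.46 to 1.13.

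The order of the genes was only partly separated by the arrays. Elys was below Nup358 on 4 of 4 arrays, by a mean of 0.57 (SD 0.43). Nup358 was below Nup153 on 2 of 4 arrays, Nup153 below Nup205 on 3 of 4 and Nup205 below Nup133 on 3 of 4, and each of these mean differences was smaller than its SD. The calls rested on both Cy5 arrays. Without array 2921, 0 of 5 genes were called by limma and 4 had an unadjusted p under 0.05, and 0.141% of all units were called. Elys then had -1.31 (adjusted p = 0.0522), Nup358 -0.92 (adjusted p = 0.0797), Nup205 -0.85 (adjusted p = 0.105), Nup153 -0.84 (adjusted p = 0.106) and Nup133 -0.53 (adjusted p = 0.179). Without array 2907, Elys alone was called, at -1.64 (adjusted p = 0.0416), while Nup358 had -0.90, Nup153 -0.85, Nup205 -0.61 and Nup133 -0.42, and 3.17% of all units were called.

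The ratios of Lam delta CaaX showed no common direction. Elys and Nup153 were called lower and Nup133 higher, where 16.4% of 8056 units were called lower and 16.1% higher. Elys had -2.38 and -1.39 on the Cy5 arrays 2962 and 2966 and -1.02 and -1.13 on the Cy3 arrays 2967 and 2968, and its mean was -1.48 ± 0.17 (SE, n = 4, adjusted p = 0.00105). Array 2962 stood below the other 3 arrays. Nup153, read from clone LD46585 alone on these arrays, had -0.44, -0.70, -0.61 and -0.93, and a mean of -0.67 ± 0.13 (adjusted p = 0.00615). Without array 2968 its value was -0.59 and it was not called (adjusted p = 0.0567).

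Nup133 had 1.05 and 1.13 on the Cy5 arrays and 0.57 and 0.46 on the Cy3 arrays. All 4 values were above 0, with the Cy5 arrays higher, and the mean of 0.80 ± 0.12 (adjusted p = 0.00287) was above that of 98.19% of units. Nup205 had -0.40, 0.20, -0.64 and -0.08, a mean of -0.23 ± 0.15 (adjusted p = 0.259), and Nup358 had -0.34, 0.49, -0.26 and -0.19, a mean of -0.08 ± 0.15 (adjusted p = 0.721). For both genes array 2966 alone lay above 0. Without it, Nup205 was called lower, at -0.38 (adjusted p = 0.0494), and without array 2962 the value of Nup358 was 0.13 (adjusted p = 0.434).

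The difference between the proteins was tested in 1 model of the 8 arrays, since Lam and Lam delta CaaX were never on the same array. Nup133 was lower with Lam than with Lam delta CaaX by -1.28 ± 0.22 (SE, adjusted p = 0.00198), and Nup358 by -0.83 ± 0.21 (adjusted p = 0.0126). These 2 genes were called, where 14.1% of 7711 units were called lower, and both were also called with each of the 8 arrays left out. For Nup133 and Nup358 every Lam value lay below every Lam delta CaaX value, and the share of all units with such a separation was not counted. Nup205 differed by -0.50 ± 0.24 (adjusted p = 0.124) and Nup153 by -0.17 ± 0.20 (adjusted p = 0.526). The difference of Nup153 sets 1 clone against another, as it does for 151 of 6690 genes in this fit that share no row between both sets of arrays. Elys differed by 0.00 ± 0.31 (adjusted p = 0.993), which does not show that both proteins gave equal ratios.

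The other nuclear pore genes were read from a list of 26, of which 17 were tested. With Lam, 8 were called lower and 1 higher, and the median of the list was -0.46 against -0.02 for all units. The list was assembled with earlier results of these data known. Rae1, an mRNA export factor at the pore, had -0.84 ± 0.14 (adjusted p = 0.00667). Nup214 of the cytoplasmic face had -0.68 ± 0.20 (adjusted p = 0.0379), and the gene that encodes both Nup98 of the channel and Nup96 of the Y complex had -0.65 ± 0.15 (adjusted p = 0.0195). The gene called higher was Nup107, at 0.52 ± 0.14 (adjusted p = 0.0271). Its product binds that of Nup133 in the Y complex.

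With Lam delta CaaX, 1 of the 17 was called lower and 3 higher, and the median was -0.02 against 0.00 for all units. Nup62, a protein of the central channel, was lower at -1.29 ± 0.19 (adjusted p = 0.00289). The cytoplasmic nucleoporin mbo had 0.52 ± 0.13 (adjusted p = 0.0158), Sec13, shared by the Y complex and COPII coats, 0.48 ± 0.13 (adjusted p = 0.0224) and Nup44A, the Seh1 of the Y complex, 0.37 ± 0.12 (adjusted p = 0.0421). In the difference of Lam minus Lam delta CaaX, 4 of 17 were called lower and 0 higher, with a median of -0.45 against -0.06, and those called with the largest values were Nup154 at -0.73, Nup93-2 at -0.65 and Rae1 at -0.65. Nup62 at 0.99 (adjusted p = 0.0514) and Nup214 at -0.82 (adjusted p = 0.0533) were farther from 0 but not called. Over the whole fits, 35.2% of units were called for Lam, 32.5% for Lam delta CaaX and 35.2% for their difference, in either direction.

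**Figure D2:**
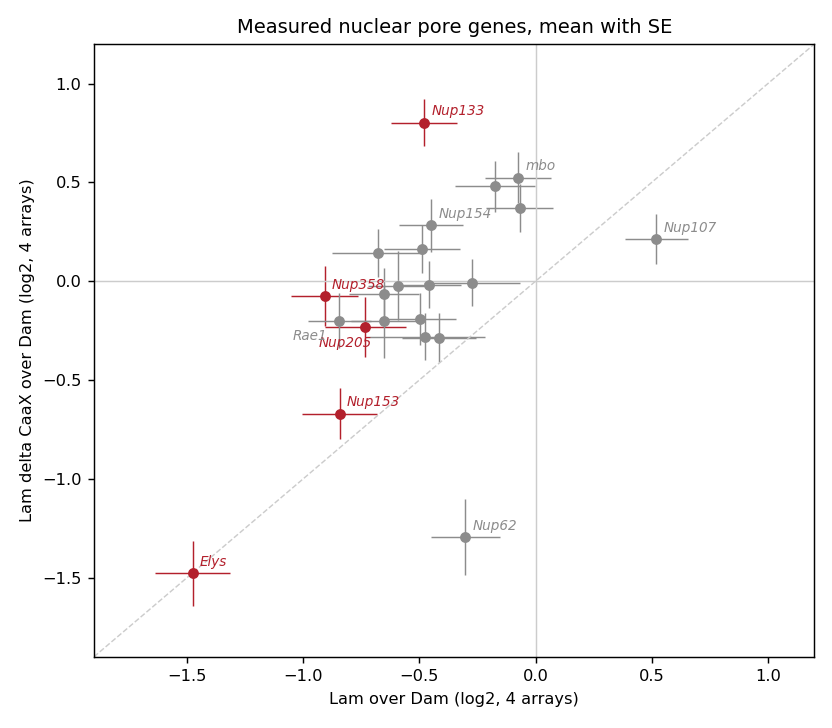
Lam over Dam (x axis) against Lam delta CaaX over Dam (y axis) in log2 for the 22 measured nuclear pore genes, each the mean of 4 arrays with its SE, with equal values on the dashed line. Elys and Nup153 (red, as are the other 3 of the 5 genes) lie near the line, while Nup133 lies farthest above it and Nup62 below it.

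Genes for nuclear transport receptors and the Ran system were also mostly below the median with Lam: of 15 tested from a list of 20, 7 were called lower and 1 higher, with a median of -0.39. The exportin gene emb had -0.89 ± 0.28 (adjusted p = 0.0467), Kap-alpha1, an importin alpha, -0.66 ± 0.16 (adjusted p = 0.0233) and the importin gene msk -0.63 ± 0.13 (adjusted p = 0.0148), while ebo, another exportin gene, had 0.69 ± 0.14 (adjusted p = 0.0123). With Lam delta CaaX, 1 of 15 was lower and 3 higher, with a median of 0.15. Of 6 tested genes for the lamina and nuclear envelope, MAN1, an inner membrane protein, was lower with Lam at -0.52 ± 0.15 (adjusted p = 0.0342), Msp300, a nesprin, higher at 0.72 ± 0.13 (adjusted p = 0.0098), and 4 were not called. Their median of -0.04 was close to the -0.02 of all units.

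The low ratios were set beside those of the 3 nearest measured genes on each side. For Elys, Nup358, Nup153 and Nup205, all 6 neighbours had a higher Lam ratio than the gene itself, and for Nup133 5 of 6 did. These counts follow largely from the ranks of the genes. The share of all units with a lower ratio ran from 0.22% for Elys to 5.28% for Nup205 and 16.35% for Nup133. The neighbours of Elys ranged from -0.80 to -0.02 with a median of -0.46, and 3 of them were called lower, where 14.9% of all units were. The next gene, Ranbp21, a transport receptor gene with no annotated gene between it and Elys, had -0.80 ± 0.17 (adjusted p = 0.0157). The neighbours of Nup358 ranged from -0.67 to -0.08, and 3 were called lower. On 1 side of it CG11857 had -0.50, Kdsr -0.66 and CG11858 -0.67, and on the other bam had -0.27, Sil1 -0.20 and Jhbp7 -0.08.

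Nup153 lay beside CG9784 at -0.64, Ubc7 at -0.40 and SMC3, a cohesin subunit gene, at -0.77, with mbt at -0.14, Rok at 0.07 and CG9782 at 0.35 on the other side. The neighbours of Nup205 had the widest range: THADA at -0.67 and Hers at -0.59 were called lower, and lky, with 28 annotated genes between it and Nup205, was called higher at 1.21 ± 0.22 (adjusted p = 0.0087). Nup133 had the highest neighbours, with a median of 0.25. Gclm at -0.60 was the neighbour below it, and wake was called higher at 0.52. With Lam delta CaaX, the neighbours of Nup133 ranged from -0.18 for Gclm to 0.41 for Cyp6d4, all below its own 0.80.

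**Figure D3:**
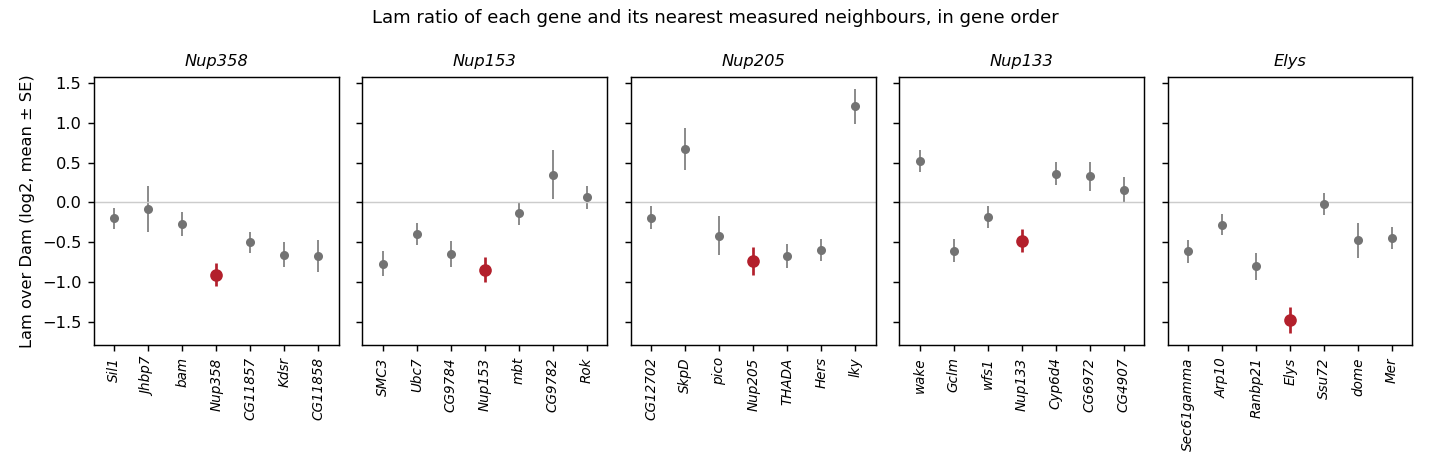
Lam over Dam in log2 (y axis, mean of 4 arrays with SE) of each nucleoporin gene (red) and of the 3 nearest measured genes on each side (grey), in gene order along the chromosome with no scale of distance. Each red point lies below the grey points of its panel, except that Gclm lies below Nup133. The low ranks of these genes among all units largely set this order.

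The level of mRNA was read on 2 arrays against genomic DNA, which corrects each spot for its hybridization efficiency, and no test was made. Nup358 had 1.13 on the Cy3 array 3458 and 1.44 on the Cy5 array 3459, a mean of 1.29, above 78.0% of units. Nup205 had 1.10 and 0.14 (mean 0.62, above 64.3%). Nup133 had 0.26 and 0.34 (mean 0.30, above 57.2%). For Nup358 and Nup133 both arrays were close, while for Nup205 array 3458 was far higher. Nup153, from clone LD47460 alone, had -0.08 and 0.29 (mean 0.10, above 52.6%), and Elys had -0.44 and 0.33 (mean -0.06, above 49.2%). The ranges of neighbours in this order overlapped or enclosed one another for all genes but Nup358, whose 1.13 lay just above the 1.10 of Nup205.

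Nup358 alone lay above the 75th percentile of units, which was 1.13. The other 4 genes were near the middle of the array, and a ratio to genomic DNA gives no level below which a gene counts as silent. Each value is an average over a culture, so fewer cells with a transcript and less of it per cell cannot be told apart. All 5 lay above 5 of the 7 measured markers of other cell types, which had -2.73 to -1.31 and mark germline, fat body and neurons. Of the muscle genes, Act88F at 3.54 lay above all 5, and up at 0.59 above Nup133, Nup153 and Elys. The other pore genes were higher, with a median of 1.11 over 17 measured and 16 of them above the median unit, and the transport genes had a median of 2.33 over 15.

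Lam ratios were lower for units with more mRNA: over 5 equal classes of mRNA level, from the lowest to the highest, the median Lam ratio was 0.45, 0.18, -0.16, -0.19 and -0.20. Within its own class, Elys had a lower Lam ratio than all but 0.248% of units, Nup358 than all but 2.67%, Nup153 than all but 4.28%, Nup205 than all but 7.33% and Nup133 than all but 21.9%. The Lam delta CaaX ratio ran the other way, with medians of -0.21, -0.08, 0.04, 0.08 and 0.14. Elys and Nup153, in the middle class, lay below that median of 0.04, and Nup133, in the same class, lay above it at 0.80. The mRNA level of Nup153 came from clone LD47460 and its Lam delta CaaX ratio from clone LD46585.

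**Figure D4:**
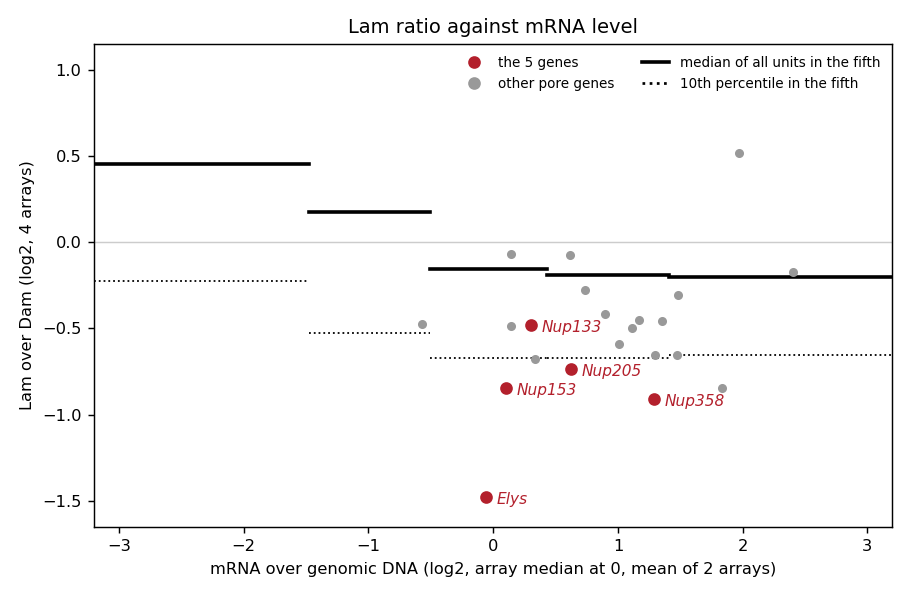
Lam over Dam (y axis, log2, 4 arrays) against mRNA over genomic DNA (x axis, log2, 2 arrays) for the 5 nucleoporin genes (red) and other pore genes (grey), with the median (solid) and the 10th percentile (dotted) of all units in each of 5 equal classes of mRNA level. Elys, Nup153, Nup205 and Nup358 lie below the 10th percentile of their class, and Nup133 lies above it.

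Ecdysone, the steroid hormone of molting, was not followed by a called change of mRNA for any of the 5 genes. limma called 0 of 5, 0 had an unadjusted p under 0.05, and 3.78% of 7089 units were called in either direction. The arrays differed in how well they agreed over all units. Correlations ran from -0.13 for arrays 3426 and 3427 to 0.76 for arrays 3450 and 3451. Without array 3427, 11.4% of units were called, and 0 of the 5 genes. Nup358 ranged from -0.26 to 0.67 over the 5 arrays with a median of -0.05. Nup133 ranged from -0.91 to 0.44 with a median of -0.06, the widest spread of the 5 genes (SD 0.56), and its mean was -0.26 ± 0.20 (adjusted p = 0.62). Elys had -0.18 ± 0.14, Nup205 -0.20 ± 0.13, Nup153 -0.11 ± 0.13 and Nup358 0.10 ± 0.16, with adjusted p from 0.522 to 0.842. Array 3450 gave the highest value for each of the 5 genes. Of 16 other pore genes tested, Nup107 alone was called, higher at 0.83 ± 0.13 (adjusted p = 0.00756).

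Relative to the array median, methylation of all 5 genes rose with TSA in cells with Dam-Lam and in cells with Dam-Lam delta CaaX. With Lam, 5 of 5 were called higher, where 31.9% of 7089 units were, and with Lam delta CaaX 5 of 5, where 27.8% were. In cells with Dam alone Nup133 was called higher, where 15.6% of units were, so that a change with a fusion holds any change that Dam itself showed. The change of Dam is therefore given beside the others. Each pair of arrays has 1 Cy3 and 1 Cy5 array, and each value below is given in that order.

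Nup358 with over without TSA had 0.99 and 0.89 with Lam (0.94 ± 0.10, adjusted p = 6.11e-06). It had 0.19 and 0.32 with Lam delta CaaX (0.26 ± 0.10, adjusted p = 0.0458), and -0.13 and 0.22 with Dam. Both Lam values were above all others of this gene. Nup153 had 0.69 and 0.84 with Lam (0.76 ± 0.09, adjusted p = 1.21e-05). It had 0.15 and 0.35 with Lam delta CaaX (0.25 ± 0.09, adjusted p = 0.0278), and -0.08 and 0.04 with Dam. Here the groups did not overlap, and on these arrays both clones were measured. The share of all units with such a separation was not counted, for Nup153 or for Nup358.

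Nup205 went the other way: its larger change was with Lam delta CaaX, at 0.66 and 0.78 (0.72 ± 0.11, adjusted p = 9.5e-05), against 0.09 and 0.43 with Lam (0.26 ± 0.11, adjusted p = 0.0452) and 0.12 and 0.22 with Dam. Its Lam values enclosed its Dam values. Nup133 had 0.93 and 0.74 with Lam (0.83 ± 0.12, adjusted p = 4.78e-05). It had 0.52 and 0.47 with Lam delta CaaX (0.50 ± 0.12, adjusted p = 0.00284), and 0.41 and 0.45 with Dam (0.43 ± 0.12, adjusted p = 0.015). All 6 values of Nup133 were above 0. Elys had 0.39 and 0.41 with Lam (0.40 ± 0.12, adjusted p = 0.0115) and 0.47 and 0.35 with Lam delta CaaX (0.41 ± 0.12, adjusted p = 0.0124), while its Dam arrays gave -0.52 and 0.11 and so differed in sign.

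**Figure D5:**
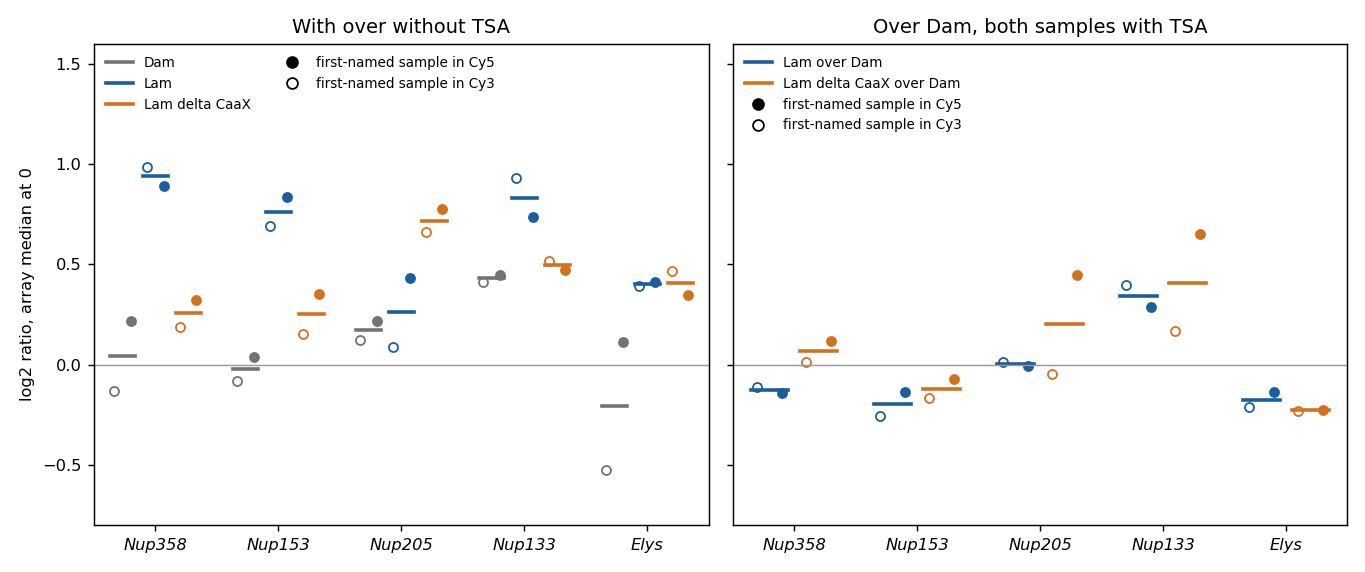
Left, log2 ratio of DNA with over without TSA (y axis, array median at 0) for each nucleoporin gene with Dam (grey), Lam (blue) and Lam delta CaaX (orange), 2 arrays each. Right, log2 ratio over Dam with both samples treated, in which Nup133 lies above 0 on all 4 arrays (0.17 to 0.65) and the other genes lie between -0.26 and 0.45.

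Several of these calls rested on single arrays of a 2-array pair. With Lam, without array 3686 Elys had 0.34 (adjusted p = 0.175) and Nup205 0.35 (adjusted p = 0.108), and without array 3687 they had 0.46 (adjusted p = 0.0684) and 0.18 (adjusted p = 0.414). Nup205 with Lam was also not called without any 1 of arrays 3692, 3693, 3688 and 3689, with adjusted p from 0.0513 to 0.0635 and an unchanged 0.26. With Lam delta CaaX, without array 3692 Nup205 alone was called, and Elys had 0.26 (adjusted p = 0.313), Nup133 0.45 (adjusted p = 0.0786), Nup153 0.29 (adjusted p = 0.149) and Nup358 0.28 (adjusted p = 0.206). Without array 3693, Nup153 had 0.21 (adjusted p = 0.298) and Nup358 0.23 (adjusted p = 0.316), and Nup358 was not called at an unchanged 0.26 without any 1 of arrays 3686, 3687, 3688 and 3689 (adjusted p from 0.0543 to 0.0615). For Dam, Nup133 was not called without array 3690 (0.43, adjusted p = 0.111) or array 3691 (0.43, adjusted p = 0.0745), and without array 3691 the value of Elys was -0.53 and was called (adjusted p = 0.0103). With the arrays scaled to the same spread, Elys (0.31, adjusted p = 0.148) and Nup205 (0.20, adjusted p = 0.309) were not called for Lam, nor were Elys (0.37, adjusted p = 0.0905), Nup153 (0.23, adjusted p = 0.125) and Nup358 (0.23, adjusted p = 0.186) for Lam delta CaaX.

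The change of each fusion beyond that of Dam was tested in 1 model of the 10 arrays. For Lam, 3 genes were called higher, where 12.4% of units were: Nup358 at 0.90 ± 0.14 (adjusted p = 0.00132), Nup153 at 0.79 ± 0.13 (adjusted p = 0.00136) and Elys at 0.61 ± 0.17 (adjusted p = 0.0203). Nup133 had 0.40 ± 0.16 (adjusted p = 0.0825) and Nup205 0.09 ± 0.15 (adjusted p = 0.684). For Lam delta CaaX, 2 genes were called higher, where 16.2% of units were: Elys at 0.61 ± 0.17 (adjusted p = 0.0164) and Nup205 at 0.55 ± 0.15 (adjusted p = 0.0146). Nup153 had 0.28 ± 0.13 (adjusted p = 0.104), Nup358 0.21 ± 0.14 (adjusted p = 0.262) and Nup133 0.06 ± 0.16 (adjusted p = 0.785). Both sets of values subtract the same 2 Dam arrays.

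The values of Elys moved with the Dam array 3690: without it, the change beyond Dam was 0.28 with Lam (adjusted p = 0.214) and 0.29 with Lam delta CaaX (adjusted p = 0.178). Elys was also not called without array 3686 (0.54, adjusted p = 0.148) or 3687 (0.67, adjusted p = 0.075) for Lam, and without array 3692 (0.46, adjusted p = 0.17) for Lam delta CaaX. Nup205 with Lam delta CaaX was not called without array 3692 (0.49, adjusted p = 0.119), 3693 (0.60, adjusted p = 0.0674) or 3691 (0.48, adjusted p = 0.058). Nup133 with Lam was called without array 3694 or 3695 (0.40, adjusted p = 0.0347 each). With all arrays scaled to the same spread, 0 of 5 genes were called for either fusion by limma, and 3 for Lam and 1 for Lam delta CaaX had an unadjusted p under 0.05. Of all 7089 units, that scaling left 0.0% called for Lam and 9.82% for Lam delta CaaX, in either direction. The loss for Lam was therefore not particular to these genes.

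The change with Lam minus the change with Lam delta CaaX, in which the Dam arrays do not enter, was larger for Nup358 by 0.68 ± 0.14 (adjusted p = 0.00391) and for Nup153 by 0.51 ± 0.13 (adjusted p = 0.00937), where 18.9% of units were called higher. For Nup205 it was smaller, at -0.46 ± 0.15 (adjusted p = 0.0313), where 19.1% were called lower. Nup133 had 0.34 ± 0.16 (adjusted p = 0.118) and Elys -0.01 ± 0.17 (adjusted p = 0.978). Without array 3686, which leaves a single array in its pair, Nup358 had 0.57, Nup153 0.52 and Nup205 -0.37. The calls of these genes were then lost, and fewer of all units were called as well. Without array 3687, 3692 or 3693 Nup358 alone kept its call, with Nup153 from 0.47 to 0.55 and Nup205 from -0.54 to -0.40. Fewer of all units were called there too. With the arrays scaled to the same spread, 0 of 5 were called by limma, and 2 had an unadjusted p under 0.05. Of all 7089 units, 1.51% were called with that scaling, against 38.0% without it, in either direction.

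With both samples treated with TSA, the Lam ratios of 4 of the 5 genes lay between -0.26 and 0.01. Ratios of all rows were also closer to 0 on these arrays, with a median distance from the array median of 0.232 and 0.213, against 0.377 to 0.504 on the 4 separate Lam arrays of untreated cells, and the part of this spread in the values of the 5 genes was not tested. Nup358 had -0.11 and -0.14 on arrays 3688 and 3689 (-0.13 ± 0.10, adjusted p = 0.358). Nup153 had -0.26 and -0.14 (-0.20 ± 0.09, adjusted p = 0.111), and Elys had -0.21 and -0.14 (-0.17 ± 0.12, adjusted p = 0.292). Nup205 had 0.01 and -0.01 (0.00 ± 0.11, adjusted p = 0.988). Nup133 had 0.40 and 0.29 and was called higher, at 0.34 ± 0.12 (adjusted p = 0.0379), where 19.5% of units were; it was not called without array 3688 (0.25, adjusted p = 0.406), 3689 (0.43, adjusted p = 0.154), 3692 or 3693 (0.34, adjusted p = 0.054 each). For all 5 genes, both treated arrays were above the 4 Lam arrays 2907, 2921, 2945 and 2955 of untreated cells, which are not part of the TSA experiment. The share of all units with the same separation was not counted, so it does not show a change with TSA in each gene. Within the TSA experiment, the Lam change beyond that of Dam was not called for Nup205 (0.09, adjusted p = 0.684) or Nup133 (0.40, adjusted p = 0.0825). Arrays 3441 and 3443 were higher than both treated arrays for Elys, Nup358, Nup153 and Nup205. They are untreated Lam arrays of the ecdysone experiment, with an unsettled direction.

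The Lam delta CaaX ratio with TSA was called for Nup133, at 0.17 and 0.65 on arrays 3694 and 3695 (0.41 ± 0.12, adjusted p = 0.038), where 5.29% of units were called higher. Array 3695 was far above array 3694, and without it the value was 0.13 (adjusted p = 0.657). The call was also lost without any 1 of arrays 3692, 3693, 3688 and 3689, at an unchanged 0.41 and adjusted p from 0.0577 to 0.0587. Elys had -0.23 on both arrays (-0.23 ± 0.12, adjusted p = 0.234). Nup205 had -0.05 and 0.45 (0.20 ± 0.11), Nup153 -0.17 and -0.07 (-0.12 ± 0.09) and Nup358 0.01 and 0.12 (0.07 ± 0.10), with adjusted p from 0.23 to 0.712. The difference of Lam minus Lam delta CaaX under TSA was called for 0 of 5 genes by limma, 0 had an unadjusted p under 0.05, and 3.29% of units were called in either direction. The values ran from -0.20 ± 0.15 for Nup205 to 0.05 ± 0.17 for Elys, and Nup133, at -1.28 in untreated cells, had -0.07 ± 0.16. The median distance from the array median was 0.166 and 0.198 on the treated Lam delta CaaX arrays and 0.295 to 0.370 on the 4 untreated ones.

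The same 10 arrays also give untreated ratios, as the ratio under TSA less the change of the fusion plus the change of Dam, and these values are built from the arrays just described. Over all units the derived Lam ratio had a correlation of 0.84 with the ratio on the 4 separate Lam arrays, and -0.15 if the treated over untreated arrays were turned. For Lam delta CaaX the values were 0.64 and -0.35. Nup358 had a derived Lam ratio of -1.02 ± 0.18 (adjusted p = 0.00107), Nup153 -0.98 ± 0.16 (adjusted p = 0.00068) and Elys -0.78 ± 0.21 (adjusted p = 0.0137), all called lower, where 13.7% of units were. Elys was not called without 1 of arrays 3686, 3688, 3689 or 3690, with adjusted p from 0.0525 to 0.0792 and, without array 3690, a value of -0.46, nor with the arrays scaled to the same spread (-0.80, adjusted p = 0.0695). Nup205 had -0.09 ± 0.18 (adjusted p = 0.741) and Nup133 -0.06 ± 0.20 (adjusted p = 0.846), against the -0.73 and -0.48 of the separate Lam arrays.

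For Lam delta CaaX, Elys was called lower in the derived ratio, at -0.84 ± 0.21 (adjusted p = 0.0254), where 5.18% of units were. It was not called without 1 of arrays 3692, 3693, 3695 or 3690, with values from -0.99 to -0.52 and adjusted p from 0.0727 to 0.152, nor with the arrays scaled to the same spread (-1.02, adjusted p = 0.0695). Nup153 had -0.40 ± 0.16 (adjusted p = 0.107), Nup205 -0.34 ± 0.18 (adjusted p = 0.223) and Nup358 -0.15 ± 0.18 (adjusted p = 0.6). Nup133 had 0.35 ± 0.20 (adjusted p = 0.265), against 0.80 on the separate arrays, and without array 3694 it was called higher at 0.63 (adjusted p = 0.049).

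Among the other pore genes, 16 were tested in the TSA experiment. With Lam, 10 were called higher and 2 lower, with a median of 0.42 against 0.01 for all units, where 65.5% of units were called in either direction. With Lam delta CaaX, 3 were higher and 5 lower, with a median of 0.07, where 56.9% were. Nup75 of the Y complex rose by 1.01 ± 0.10 with Lam (adjusted p = 3.48e-06) and 0.44 ± 0.10 with Lam delta CaaX (adjusted p = 0.00237). Nup107 moved the other way from Nup133, at -1.46 ± 0.13 with Lam, -1.58 ± 0.13 with Lam delta CaaX and -0.83 ± 0.13 with Dam, each called lower. In the change with Lam minus that with Lam delta CaaX, 6 of 16 were higher and 0 lower. Of all units, 18.9% were called higher and 19.1% lower, which is 38.0% in either direction. The median was 0.36 against 0.09 for all units, and Nup154 of the inner ring had 0.72 ± 0.15 (adjusted p = 0.00333).

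The Lam arrays of the ecdysone experiment did not settle their direction, so their values are given without a test. Over all units array 3434 of untreated cells had a correlation of 0.53 with the mean of the 4 Lam arrays, and arrays 3441 and 3443 had -0.73 each. On these 3 arrays Elys had -1.61, 1.12 and 1.35, Nup358 -0.80, 1.06 and 1.38, Nup205 -0.42, 0.66 and 1.08, Nup133 -0.34, -0.43 and 0.07, and Nup153 0.64, 0.13 and 0.85. Elys, Nup358 and Nup205 were below 0 on array 3434 and above 0 on the other 2, Nup133 was above 0 on array 3443 alone, and Nup153 was above 0 on all 3. With these arrays added as deposited to the 4 Lam arrays, Elys had -0.68 and 0 of 5 genes were called by limma, with 1 at an unadjusted p under 0.05. Of all 6856 units in that fit, 0.0% were called. Arrays 3441 and 3443 were then turned because each correlated negatively with the mean of the 4 Lam arrays. Likeness to those 4 arrays was thus set by the choice, and the result is no independent test. With arrays 3441 and 3443 turned, Elys had -1.41, Nup358 -0.99, Nup205 -0.73 and Nup153 -0.57, all called, and Nup133 -0.30 (adjusted p = 0.116). Of the 6856 units, 46.3% were called in either direction.

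With ecdysone in both samples, the Lam ratio of Elys was 0.77, -1.18 and -0.57 on arrays 3428, 3436 and 3442, and that of Nup358 was 0.60, -1.15 and -0.63. Array 3428 was opposite in sign to the other 2 for all 5 genes, and its correlation with array 3436, of the same dye orientation, was -0.64 over all units. On the arrays with over without ecdysone, the 5 genes had 0.20 to 0.56 on array 3463 and -0.13 to 0.12 on array 3464 with Lam, and -0.32 to 0.30 on array 3465 and -0.62 to 0.38 on array 3637 with Dam. The correlation between the arrays of each of these pairs was 0.02 for Lam and 0.06 for Dam.

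Over the 20 arrays of Lam, Lam delta CaaX, TSA and mRNA level, each scaled to its own spread, the closest pair among the 5 genes was Elys and Nup153 (Pearson r = 0.82). Among all genes compared, Nup153 ranked 50th by its r to Elys. Nup133 was the least like the others, with r = 0.12 to Elys, 0.31 to Nup153, 0.54 to Nup205 and 0.63 to Nup358. These arrays share samples and dyes, so the values are a description. The Lam and Lam delta CaaX ratios given below for the most alike genes entered r, so their likeness was part of the choice. Among the 5699 genes compared, those most like Elys were cactin (r = 0.93), Mybbp1A (r = 0.93) and BRWD3 (r = 0.93), with Lam ratios from -0.93 to -0.76. Nup358 was closest to Mi-2 (r = 0.92), a chromatin remodeller, Cul4 (r = 0.90) and Cubn (r = 0.90). Nup153 was closest to CG16868 (r = 0.94), alpha-PheRS (r = 0.92) and CG12204 (r = 0.92), and Nup205 to CG2574 (r = 0.89), Msh6 (r = 0.88) and noi (r = 0.86). The 3 genes most like Nup133 were nxf2 (r = 0.87), CG42724 (r = 0.86) and Mtp (r = 0.85), each below 0 with Lam (-0.49 to -0.25) and above 0 with Lam delta CaaX (0.49 to 0.75).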

How the data were processed

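The authors deposited a log ratio per probe row for each of 35 two-colour cDNA arrays, and limma is the tool named by the submitters' processing notes. The limma version, how background was corrected, how arrays were normalized, which spots were filtered, the log base and the direction of the ratios: each is not given in the sources used here. The deposited values were taken here as log2 because they reach 11.60, above the natural logarithm of a 16-bit intensity, and as channel 1 over channel 2. No spot intensities or depths were used, so error was judged from the spread between arrays, whose number limits the precision.

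Each array was centred on its median (deposited medians from -0.22 to 0.14). Rows were named from the platform's probe table, and rows of the same symbol were averaged, giving 8421 units. Release 6 of the reference annotation served for gene order alone. Each comparison was a linear model with a gene-wise dye term (R 4.3.3 with limma 3.58.1, functions lmFit and eBayes). Each model was first tried on simulated data for 1 comparison, which in the TSA model was the change of Dam alone. The untreated ratios used 4 arrays each, their difference 8, the TSA experiment 10 in 1 model of 6 DNA samples, and the ecdysone mRNA 5. A unit needed a value on 75% of the arrays. Tests were two-sided with Benjamini-Hochberg adjustment over all units.

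The 5 genes, the gene lists and the tests were chosen with earlier results of these data known. The genes named are the 5 nucleoporin genes, up to 3 called genes per direction and list with the largest absolute log2, the 3 nearest measured genes on each side, and the 3 genes with the highest Pearson r over 20 arrays. The alternatives were values as deposited, no dye term, arrays scaled to the same spread, only units on every array, rows tested singly, adjusted p under 0.01, other array selections and each array left out. The untreated ratios derived from the TSA arrays and the Lam change minus the Lam delta CaaX change were added after seeing the data. Sequences were not used here.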

Additional observations from a re-analysis of the deposited data

Results flagged for a closer look

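There were 5 differences between the proteins that were called by a test of the difference itself. In untreated cells, Lam minus Lam delta CaaX was -1.28 for Nup133 and -0.83 for Nup358. In the response to TSA, the change with Lam minus the change with Lam delta CaaX was 0.68 for Nup358, 0.51 for Nup153 and -0.46 for Nup205. The untreated difference compares separate sets of arrays, and the difference in response compares pairs of 2 arrays whose spreads over all units differ. With the spreads made equal, the 3 differences in response were not called, while the 2 untreated differences were. By Dixon's test, in which the gap of the farthest array is divided by the whole range, none of the 15 sets of 4 or 5 array values, the 5 genes in 3 groups, passed the 95% critical value of 0.829 for 4 arrays or 0.71 for 5. Nup358 on the Lam delta CaaX arrays, with array 2966 at 0.49, came to 0.828 and so lay at that limit, and Nup358 on the Lam arrays had 0.771.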

How the results depend on the processing

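Counts here are of the 5 genes called by limma, and where a setting moved one the cause was not tested unless stated. Lam minus Lam delta CaaX in untreated cells kept 2 calls with each array left out, Lam delta CaaX over Dam kept 3 under every setting other than an array left out (2 to 4), and the ecdysone mRNA had 0 throughout. At an adjusted p under 0.01, a stricter limit, 2 were called for Lam over Dam, 1 for Lam minus Lam delta CaaX, 3 for the TSA change with Lam, 2 for that with Lam delta CaaX, and 0 for that with Dam, for the Lam delta CaaX change minus the Dam change, for either fusion over Dam with TSA and for the derived Lam delta CaaX ratio. Without the dye term, 3 were called for the Lam delta CaaX change, and 0 for either fusion over Dam with TSA and for the derived Lam delta CaaX ratio. With arrays scaled to the same spread, 3 were called for the Lam change and 2 for the Lam delta CaaX change, while 0 were called for each change minus the Dam change, for the difference of the changes and for the derived Lam delta CaaX ratio. Of all units, scaling then called 0.0% for the Lam change minus the Dam change 9.82% for the Lam delta CaaX change minus the Dam change and 1.51% for the difference of the changes. Adding 3 ecdysone-experiment Lam arrays as deposited left 0 for Lam over Dam, and 0 were called for Lam minus Lam delta CaaX when it was read with TSA. Of all units, 0.0% and 3.29% were called in these 2 readings. Where 0 were called, 0 to 4 had an unadjusted p under 0.05. The share of all units called also fell in the fits named at the stricter limit and without the dye term. With an array left out, that share for Lam over Dam fell from 35.2% to 0.141% without array 2921. It rose without array 2945 or 2955. For each TSA change and each fusion over Dam with TSA, it fell without either array of the pair. Such counts do not separate instability of these genes from a general change in calls. With each array left out, the count ran from 0 to 5 for Lam over Dam, 0 to 1 for the Dam change, 3 to 5 for the Lam change, 1 to 5 for the Lam delta CaaX change, 0 to 2 for that change minus the Dam change, 0 to 3 for the difference of the changes, 0 to 1 for each fusion over Dam with TSA and 0 to 2 for the derived Lam delta CaaX ratio. Of the 35 calls of single genes, 7 were lost without the dye term (Nup205 for the Lam change and the difference of the changes, Nup153 and Nup358 for the Lam delta CaaX change, Nup133 for both fusions over Dam with TSA, and Elys for the derived Lam delta CaaX ratio), 2 with values as deposited (Nup205 for the Lam change, Nup358 for the Lam delta CaaX change) and 1 with rows tested singly (Nup153 for the Lam delta CaaX change). None of the 35 changed sign under any setting tried. Uncalled values near 0 did: as deposited, Elys had -0.0052 for Lam minus Lam delta CaaX, and scaled, Nup205 had -0.0323 for the Lam change minus the Dam change, Nup133 -0.12 for the Lam delta CaaX change minus the Dam change, and Nup133 0.41 and Nup205 0.0353 for the derived Lam ratio. With each array left out, Nup358 ran from -0.28 to 0.13 for Lam delta CaaX over Dam, -0.12 to 0.20 for the Dam change, -0.31 to 0.0114 for the derived Lam delta CaaX ratio and -0.043 to 0.19 for the ecdysone mRNA. Elys ran from -0.32 to 0.17 for Lam minus Lam delta CaaX, -0.0197 to 0.13 for that difference with TSA, -0.53 to 0.12 for the Dam change and -0.16 to 0.15 for the difference of the changes. Nup205 ran from -0.14 to 0.14 for Lam over Dam with TSA and -0.23 to 0.053 for the derived Lam ratio, and Nup133 from -0.35 to 0.21 for Lam minus Lam delta CaaX with TSA and -0.20 to 0.0843 for the derived Lam ratio. No paired analysis was possible because the groups share no replicate numbers. The number of arrays, 2 to 5 a group, limits what could be called, and signal over background was not used here.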
